A study of Mus musculus with 19 samples.

Results

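The mitochondrial carriers of the Slc25 family were described here in RNA sequencing libraries of mouse heart. All 47 rows of the gene table whose symbol is Slc25a followed by a number were taken, out of 25239 symbols. Of these 47 genes, 39 passed the filter on low counts and were tested among 14301 genes. The question of the study, as its design text gives it, was what Mcm8, which encodes a DNA helicase of recombination repair, does for the health of blood vessels in a mouse model of Kawasaki disease. Hearts came from Mcm8 knockout mice given LCWE (n = 5), Mcm8 knockout mice given PBS (n = 3), wild-type mice given LCWE (n = 6) and wild-type mice given PBS (n = 5). LCWE is the cell wall extract of Lactobacillus casei, which induces coronary arteritis in mice, and PBS is the buffer given in its place. The labels used here give no strain, age, sex, dose or time after injection, and they do not describe the knockout allele or the cells that lost the gene. Whether each sample is an animal of its own is not said, and the p-values then measure only the spread among these libraries, part of which may be technical.

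Total counts per library ranged from 11853233 to 16145911. Mcm8, the check of the genotype, lay between 0.130 and 0.749 CPM in Mcm8 knockout LCWE hearts, 0.617 and 0.910 CPM in Mcm8 knockout PBS hearts, 2.60 and 5.19 CPM in wild-type LCWE hearts and 2.84 and 4.54 CPM in wild-type PBS hearts. All 10 cardiomyocyte markers were detected, with a summed level of 83910 to 126500 CPM over the 19 libraries, while the haemoglobin genes Hba-a1 and Hbb-bs were listed at 0 in every library. Mcm8 knockout PBS replicate 1 stood apart from the rest: its Spearman correlation with the median profile was 0.960, against 0.979 to 0.994 in the other libraries. Reads of Y-linked genes exceeded 100 CPM in 5 libraries, which were knockout LCWE replicates 1, 3 and 5, knockout PBS replicate 1 and wild-type LCWE replicate 1. Xist, the X-inactivation RNA, exceeded 100 CPM in 13 libraries, among them every wild-type PBS library, and knockout LCWE replicate 2 had neither. These markers of sex were uneven over genotype and treatment. A part of sex in the group differences therefore cannot be fully told apart from theirs. Values without knockout PBS replicate 1 are given beside the calls of carriers and where they turn the direction of a carrier's fold change that is printed. In whole heart, fewer cells of a type and less RNA per cell cannot be told apart.

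Slc25 carriers are nuclear-encoded membrane proteins, most of them in the inner mitochondrial membrane, that exchange metabolites, nucleotides, cofactors and ions between the cytosol and the matrix. They are made in the cytosol and inserted into the inner membrane by the TIM22 import machinery. In heart muscle the adenine nucleotide translocases hand ATP to the contractile apparatus in exchange for ADP, the carnitine-acylcarnitine carrier admits fatty acids for oxidation, and the aspartate-glutamate and oxoglutarate carriers move reducing equivalents in the malate-aspartate shuttle.

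The promoters shown are those of the 4 carriers that passed the test in at least 1 comparison. They are Slc25a10, the dicarboxylate carrier (chromosome 11, 120491840 to 120499187, forward strand), Slc25a20, the carnitine-acylcarnitine carrier (chromosome 9, 108662088 to 108684641, forward strand), Slc25a36, a pyrimidine nucleotide carrier (chromosome 9, 97074961 to 97111157, reverse strand), and Slc25a42, the coenzyme A carrier (chromosome 8, 70184340 to 70212305, reverse strand). Gene positions are those of GENCODE M21 on GRCm38, in which all 47 carriers were found. The windows below lie upstream of the start and come from RefSeq on GRCm38.p6, which gave a promoter for 36 of the 47 carriers. They are the stretches chr11:120491587-120491836 (forward), chr9:108661886-108662087 (forward), chr9:97111158-97111291 (reverse) and chr8:70212306-70212531 (reverse), in the order of the lines. Capitals mark matches, on either strand, to the E-box CACGTG, the cyclic AMP element TGACGTCA, the GC box GGGCGG and the CCAAT box CCAAT.
Slc25a10: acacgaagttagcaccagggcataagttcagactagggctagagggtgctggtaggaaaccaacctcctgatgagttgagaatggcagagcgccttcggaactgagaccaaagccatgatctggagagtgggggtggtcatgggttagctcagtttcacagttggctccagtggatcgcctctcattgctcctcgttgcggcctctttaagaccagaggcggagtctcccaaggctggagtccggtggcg
Slc25a20: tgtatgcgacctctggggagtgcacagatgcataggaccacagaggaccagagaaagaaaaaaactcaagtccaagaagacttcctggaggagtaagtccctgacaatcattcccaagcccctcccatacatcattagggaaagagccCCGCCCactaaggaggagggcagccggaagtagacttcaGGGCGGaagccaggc
Slc25a36: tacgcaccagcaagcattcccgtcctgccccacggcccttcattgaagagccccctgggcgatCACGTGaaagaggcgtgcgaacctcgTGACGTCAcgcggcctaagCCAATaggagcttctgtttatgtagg
Slc25a42: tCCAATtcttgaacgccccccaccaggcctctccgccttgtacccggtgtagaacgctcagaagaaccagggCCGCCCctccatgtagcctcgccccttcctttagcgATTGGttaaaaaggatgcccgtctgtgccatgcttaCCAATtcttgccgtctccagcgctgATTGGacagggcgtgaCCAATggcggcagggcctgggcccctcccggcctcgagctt

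Matches to these motifs were uneven among the 4 promoters. Slc25a36 held 1 cyclic AMP element, present in 0.289% of all 32851 promoter windows trimmed to the same length, 1 E-box, present in 2.49%, and 1 CCAAT box, present in 18% of them. Slc25a42 held 5 CCAAT boxes and 1 GC box, and 31.7% and 29.3% of windows of its length held at least 1 of each. Slc25a20 held 2 GC boxes, and 25% of windows of its length held at least 1. Trimming kept the bases of all windows farthest from the RefSeq start, so these shares leave out the bases nearest to it. The Slc25a36, Slc25a42 and Slc25a20 windows end next to their GENCODE starts, so the shares are not matched to them in position. Among windows of 250 bases, 1.55% held a cyclic AMP element and 6.02% an E-box. None of the motifs was found in the Slc25a10 window, and the nuclear receptor element AGGTCA and its direct repeat with 1 base between were found in none of the 4. A match is a run of letters and was not tested as a binding site.

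The family took between 1.08% and 1.49% of all counts in a library, and Slc25a4, the adenine nucleotide translocase of heart and muscle, made up 56% to 66.7% of that share. Levels per length are given in RPKM, CPM divided by the exon length in kilobases, as mean ± SD over the 19 libraries. Slc25a4 stood at 3031 ± 517 RPKM, followed by the phosphate carrier Slc25a3 at 339 ± 22.9 RPKM, the oxoglutarate carrier Slc25a11 at 295 ± 29.6 RPKM, the translocase of non-muscle cells Slc25a5 at 222 ± 38.9 RPKM and Slc25a34, a carrier with no agreed substrate, at 141 ± 35.1 RPKM. The step below them was wide, to Slc25a39, a carrier needed for mitochondrial glutathione, at 50.2 ± 4.61 RPKM and Slc25a20 at 38.99 ± 8.57 RPKM. Slc25a53 was the lowest of the 39 genes tested, at 0.137 RPKM. Of the genes tested, the spread over all libraries was narrowest for Slc25a3, with a coefficient of variation of 6.77%, and for Slc25a46, a carrier of the outer membrane, with 8.77%. Among the genes tested it was widest for the pyrimidine nucleotide carrier Slc25a33, with 69.7%, where knockout PBS replicate 1 held 146 CPM and the other 18 libraries 13.5 to 50.1 CPM. Slc25a33 overlaps Gm13068 on the other strand, and reads of the overlap cannot be told apart here. Slc25a5 has processed pseudogenes, and a division of its reads between copies by the counting was not examined.

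**Figure D1:**
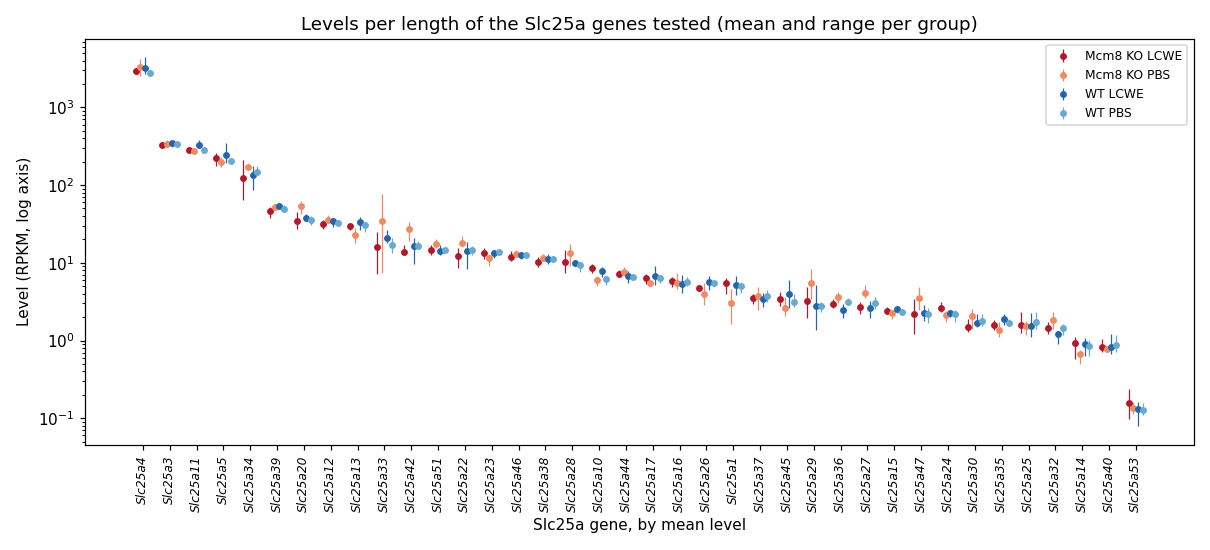
Level per length of the Slc25a genes tested, 1 of them not shown (RPKM, log axis), in order of the mean level. Points are group means and lines run from the lowest to the highest library of Mcm8 knockout LCWE (n = 5), Mcm8 knockout PBS (n = 3), wild-type LCWE (n = 6) and wild-type PBS hearts (n = 5). Slc25a4 stands at 3031 RPKM over all libraries, above Slc25a3 at 339 RPKM, and the line of Slc25a33 is long in the knockout PBS group.

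The other 8 carriers were not tested, because their counts were low. Slc25a54 had 0 counts in all 19 libraries. Slc25a41, an ATP-Mg/phosphate carrier, was at 0 in 16 libraries and never above 1 count, while Slc25a21, the oxodicarboxylate carrier, and Slc25a48 were at 0 in 11 libraries each, with at most 3 and 5 counts. Slc25a43 was at 0 in 3 libraries and reached 8 counts, and Slc25a2, an ornithine carrier, was at 0 in 1 library and reached 10 counts. Slc25a31, the adenine nucleotide translocase of testis, had 1 to 11 counts. Slc25a18, a glutamate carrier, had 73 counts in knockout PBS replicate 1 and 2 to 13 counts in the other 18 libraries. It overlaps Atp6v1e1 on the other strand, and reads of the overlap cannot be told apart here.

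In the hearts of knockout mice, LCWE was followed by lower levels of the coenzyme A carrier Slc25a42 and of the carnitine-acylcarnitine carrier Slc25a20 and by a higher level of the dicarboxylate carrier Slc25a10. These were 3 of the 39 carriers tested, with 2 lower and 1 higher, and 2.9% of all genes tested were called in the same comparison (415 of 14301), 0.818% higher and 2.08% lower. DESeq2 called 5 carriers, adding Slc25a27 and Slc25a1, beside 8.81% of all genes, and limma-voom called 0, beside 0.79%. At an unadjusted p under 0.05 there were 14 carriers, 3 higher and 11 lower, which is 35.9% of the 39 against 23.4% of all genes. The ranges of the libraries did not overlap for 4 carriers, 1 above and 3 below, as for 8.61% of all genes. The median log2 fold change of the 39 was -0.09, between -1.12 for Slc25a33 and 0.85 for Slc25a1, and that of all genes was 0.01. Without knockout PBS replicate 1 the count at an unadjusted p under 0.05 was 6 (15.4% against 11.2% of all genes), the median was 0.01, Slc25a33 was at 0.24 and Slc25a1 at 0.55, and 6 of the 39 fold changes had the other sign. With labelled sample numbers grouped into ranges as a covariate, the 3 calls ended, at adjusted p of 0.0543 for Slc25a42, 0.0605 for Slc25a20 and 0.0592 for Slc25a10. In wild-type hearts LCWE gave 0 calls by edgeR among the carriers and 0% among all genes, and DESeq2 and limma-voom also called 0 carriers, beside 0.00699% and 0% of all genes. At an unadjusted p under 0.05 there were 3 carriers, or 7.69% against 6.24% of all genes, and the groups overlapped for all 39, where 0.699% of all genes were without overlap. The wild-type fold changes of the carriers ran from -0.37 for Slc25a36 to 0.34 for Slc25a10.

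**Figure D2:**
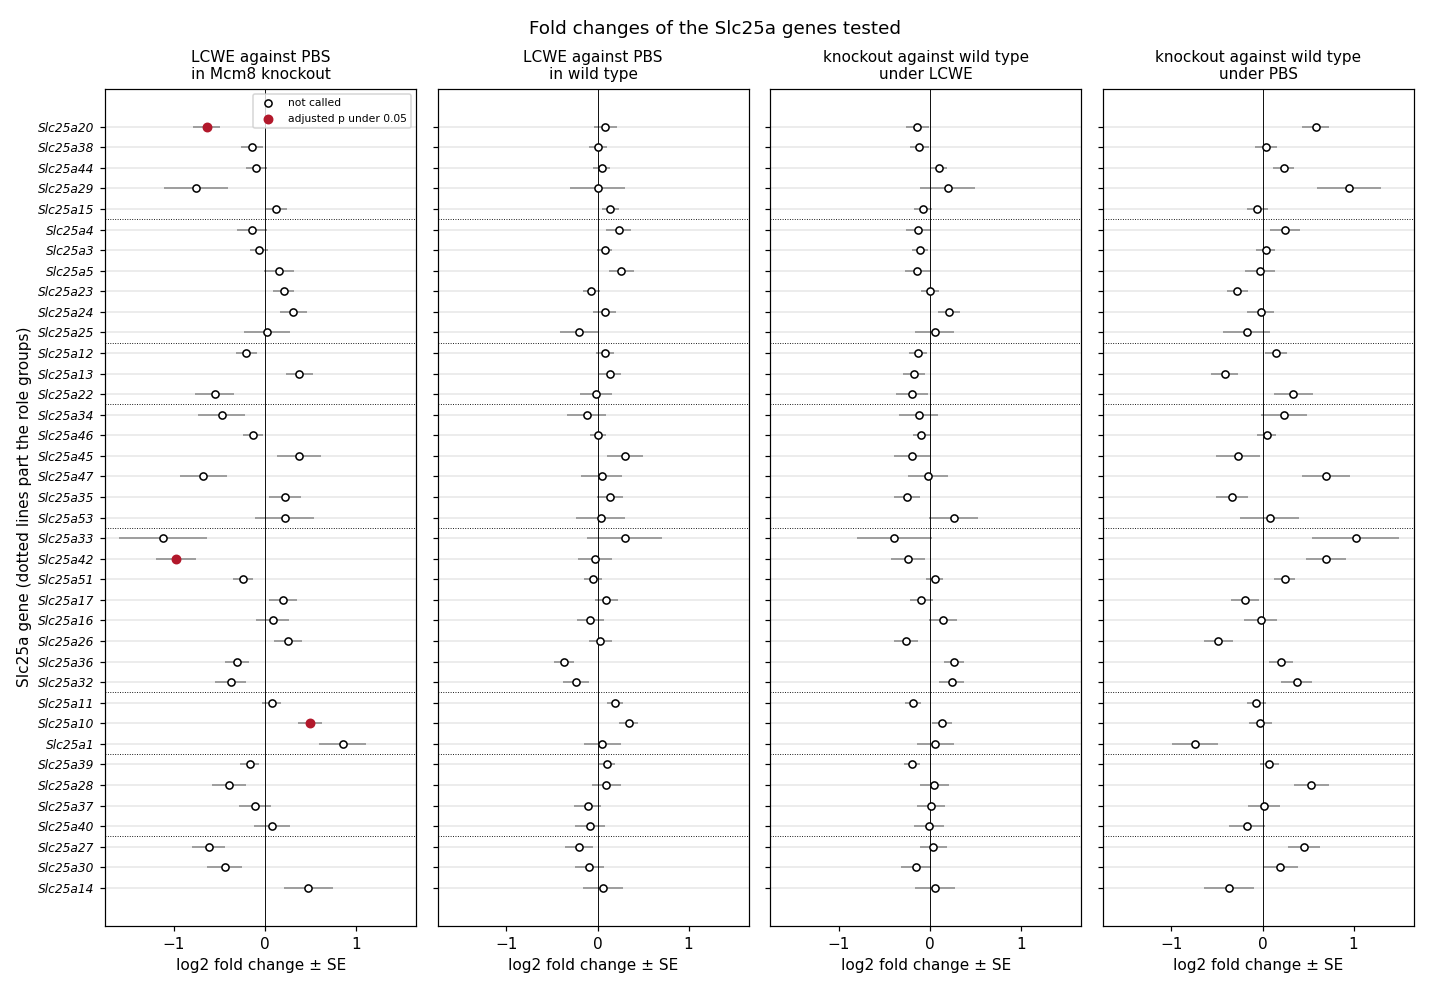
Log2 fold change and its standard error for the Slc25a genes tested, 1 of them not shown, by role, in 4 comparisons, each with the first-named group over the second. Filled points passed an adjusted p under 0.05 and open points did not. The 3 filled points, Slc25a20, Slc25a42 and Slc25a10, stand in the comparison of LCWE with PBS in the knockout, and the points of the wild type lie between -0.37 and 0.34.

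Between genotypes, 0 carriers were called by edgeR under LCWE, beside 0.00699% of all genes, and DESeq2 and limma-voom also called 0, beside 0.0559% and 0.00699%. Under LCWE 3 carriers had an unadjusted p under 0.05, or 7.69% against 5.55% of all genes, and 0 carriers had groups without overlap, against 0.531% of all genes. Under PBS, edgeR likewise called 0 carriers, beside 0.601% of all genes (86 of 14301), whereas DESeq2 called 2 carriers, Slc25a20 and Slc25a42, beside 4.89% of all genes, and limma-voom 0, beside 0.00699%. At an unadjusted p under 0.05 there were 13 carriers under PBS, 9 higher and 4 lower in the knockout, or 33.3% against 19.7% of all genes. Without knockout PBS replicate 1 that count was 3 (7.69% against 6.43% of all genes). The groups were without overlap for 4 carriers, Slc25a20, Slc25a42 and the basic amino acid carrier Slc25a29 above and the calcium-dependent ATP-Mg/phosphate carrier Slc25a23 below, against 7.72% of all genes. The comparisons of LCWE with PBS in the knockout and of the genotypes under PBS share the 3 knockout PBS libraries, so their fold changes are not independent. The interaction of genotype and LCWE gave 0 carriers and 0% of all genes by edgeR, 5 carriers at an unadjusted p under 0.05 (12.8% against 8.01% of all genes), and 0 carriers by DESeq2 and by limma-voom, beside 0.035% and 0% of all genes.

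Averaged over both genotypes, LCWE raised Slc25a10 and lowered Slc25a36, 2 of the 39 carriers, and 2.95% of all genes were called (422 of 14301, with 1.35% higher and 1.6% lower). At an unadjusted p under 0.05 the share was 25.6% of the carriers (10 of 39), beside 25.5% of all genes. DESeq2 called 4 carriers in this average (Slc25a10, Slc25a27, Slc25a36 and Slc25a42), beside 9.45% of all genes, and limma-voom called 1, Slc25a10, beside 1.01%. Averaged over both treatments, the knockout gave 0 calls by edgeR among the carriers, beside 0.014% of all genes, and limma-voom also gave 0, beside the same 0.014%. DESeq2 called 1, the S-adenosylmethionine carrier Slc25a26, beside 4.7% of all genes, and 10 carriers had an unadjusted p under 0.05 (25.6% against 20.7% of all genes). Carriers other than those named as called here and for the comparisons above were called by none of these 3 tools in any of the 7 comparisons.

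Markers of other cells moved with the same groups. The summed level of the 10 leukocyte and macrophage markers ran from 419.5 to 1261 CPM in Mcm8 knockout LCWE hearts, against 171 to 423 CPM in Mcm8 knockout PBS hearts, and from 348 to 786 CPM in wild-type LCWE hearts, against 311 to 377 CPM in wild-type PBS hearts. Of the 9 tested, 4 rose with LCWE in the knockout (Ptprc, Tyrobp, Itgam and Mrc1), 0 in the wild type and 8 on average over genotypes, where 0.818%, 0% and 1.35% of all genes were called higher. DESeq2 called 8 with LCWE in the knockout and limma-voom 2, beside 8.81% and 0.79% of all genes. On average over genotypes DESeq2 called 8 and limma-voom 7, beside 9.45% and 1.01%. In the wild type both called 0, beside 0.00699% and 0%. All 9 lay above 0 in each genotype, at median log2 fold changes of 1.41 in the knockout and 0.70 in the wild type. At an unadjusted p under 0.05 there were 9 and 6, against 23.4% and 6.24% of all genes. The interaction gave 0 calls by edgeR, beside 0% of all genes. Without knockout PBS replicate 1, edgeR called 0.0069% of all genes with LCWE in the knockout and 0% on average over genotypes. None of the 8 average calls by edgeR then remained. The 10 cardiomyocyte markers summed to between 94500 and 120100 CPM in knockout LCWE hearts and 83910 and 106200 CPM in knockout PBS hearts, and 1 of them, Actc1, rose. DESeq2 called Actc1 and Mybpc3 with LCWE in the knockout, and these and Myl2 on average over genotypes, beside 8.81% and 9.45% of all genes. Their sums in wild-type LCWE hearts were 109600 to 126500 CPM, and 101900 to 116500 CPM in wild-type PBS hearts. Of the other lists, edgeR and limma-voom called 0 members in the same comparisons and DESeq2 called 2, the collagens Col1a1 and Col1a2 of the fibroblast list, with LCWE in the knockout, and their sums overlapped between knockout LCWE and knockout PBS hearts, at 779 to 1035 against 839 to 1203 CPM for brown adipocyte markers, 1109 to 1674 against 1455 to 1666 CPM for endothelial markers, 843 to 1190 against 809 to 939 CPM for fibroblast markers, 1623 to 2679 against 1460 to 2372 CPM for skeletal muscle markers and 105 to 228 against 4.41 to 394 CPM for liver markers. Within the brown adipocyte list, Ucp1 lay between 0 and 0.085 CPM over all libraries. Its members Cox7a1, Cox8b and Ppargc1a lay at 343 to 754.4, 252.1 to 639.1 and 68.68 to 356.2 CPM. Cidea lay at 24.75 to 80.6 CPM, Dio2 at 0.280 to 3.09 CPM and Elovl3 at 0 to 2.28 CPM. The brown adipocyte sum therefore does not show whether such cells were present. Ckm held most of the skeletal muscle sum, at 1171 to 2360 CPM. Myh4 lay at 2.705 CPM in knockout LCWE replicate 1 and 2.862 CPM in knockout PBS replicate 3. It lay at 1.651 CPM in wild-type LCWE replicate 4 and 1.92 and 1.782 CPM in wild-type PBS replicates 1 and 5. Every other library held at least 75.48 CPM. Mylpf and Tnnt3 had the same split, at most 2.561 and 2.705 CPM against at least 24.34 and 26.03 CPM. That sum does not show the split, whose cause was not tested. Erythroid, white adipocyte and testis markers summed to at most 41.2 CPM in each library. The part of these shifts in the values of the carriers was not tested.

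The cofactor and nucleotide carriers were 9 genes, all tested, of which 1 fell with LCWE in the knockout. Slc25a42, which brings coenzyme A into the matrix, had 78.2, 74.9, 81.3, 102 and 77.1 CPM in Mcm8 knockout LCWE hearts, against 173, 115 and 198 CPM in Mcm8 knockout PBS hearts. Every knockout LCWE library lay below every knockout PBS library. Its log2 fold change was -0.97 ± 0.22 (SE, adjusted p = 0.0322 by edgeR), and without knockout PBS replicate 1 it was -0.92 (adjusted p = 0.239). Wild-type LCWE hearts ran from 58.6 through a median of 112 to 124 CPM, against 105, 100.5, 92.5, 113 and 89.2 CPM in wild-type PBS hearts. In the wild type the groups overlapped, 2 LCWE libraries lay below all others, and the log2 fold change was -0.03 ± 0.18. Under PBS the knockout was above the wild type without overlap, at a log2 difference of 0.70 ± 0.22 that missed the threshold (adjusted p = 0.0972), and at 0.65 without knockout PBS replicate 1 (adjusted p = 0.66). The interaction was -0.94 ± 0.29 (adjusted p = 0.527).

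Slc25a36, which carries pyrimidine nucleotides, had 32.5, 26.2, 29.2, 28.4 and 25.3 CPM in Mcm8 knockout LCWE hearts, against 35.4, 29.5 and 40.2 CPM in Mcm8 knockout PBS hearts. In wild-type LCWE hearts it ran from 18.6 through 23.8 to 28.5 CPM, against 31.8, 30.8, 33.8, 28.3 and 27.5 CPM in wild-type PBS hearts. The groups overlapped in both genotypes, with most LCWE libraries at the low end. Neither genotype alone passed, at log2 fold changes of -0.31 ± 0.13 in the knockout (adjusted p = 0.171) and -0.37 ± 0.11 in the wild type (adjusted p = 0.772). The average over genotypes passed, at -0.34 ± 0.09 (adjusted p = 0.0435), with a value of -0.34 without knockout PBS replicate 1 (adjusted p = 0.145). Under LCWE the knockout minus the wild type was 0.26 ± 0.11 (adjusted p = 0.857).

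Slc25a26, which imports S-adenosylmethionine, had 24.0, 23.8, 22.7, 22.2 and 21.02 CPM in Mcm8 knockout LCWE hearts and 13.8, 26.1 and 17.4 CPM in Mcm8 knockout PBS hearts. The wild-type LCWE libraries ran from 21.6 through 27.0 to 32.9 CPM, and wild-type PBS hearts held 27.0, 28.0, 24.0, 27.0 and 27.9 CPM. Knockout PBS replicates 1 and 3 were the lowest of all 19 libraries. The difference of knockout and wild type averaged -0.38 ± 0.10 over treatments (adjusted p = 0.0836) and was -0.28 without knockout PBS replicate 1 (adjusted p = 0.337). Slc25a26 overlaps Lrig1 on the other strand, and since no use of strand is given in the sources used here, reads of the overlap cannot be told apart.

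Slc25a32, a folate and FAD carrier, had 8.66, 8.31, 8.69, 7.45 and 10.4 CPM in Mcm8 knockout LCWE hearts and 14.0, 8.57 and 11.4 CPM in Mcm8 knockout PBS hearts. With LCWE in the wild type it ran from 5.53 through 7.71 to 8.11 CPM, and wild-type PBS hearts held 8.93, 7.97, 9.73, 9.88 and 7.13 CPM. The groups overlapped, and the knockout minus the wild type averaged 0.31 ± 0.11 over treatments (adjusted p = 0.14), with 0.22 without knockout PBS replicate 1. Of the other carriers of this role, the NAD carrier Slc25a51 had a log2 fold change of -0.24 ± 0.12 with LCWE in the knockout (adjusted p = 0.21) and Slc25a33 one of -1.12 ± 0.48 (adjusted p = 0.173) that turned to 0.24 ± 0.36 without knockout PBS replicate 1. The peroxisomal carrier Slc25a17 was at 0.20 ± 0.15 and Slc25a16 at 0.09 ± 0.18 in the same comparison, with -0.02 for Slc25a16 without that library.

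**Figure D3:**
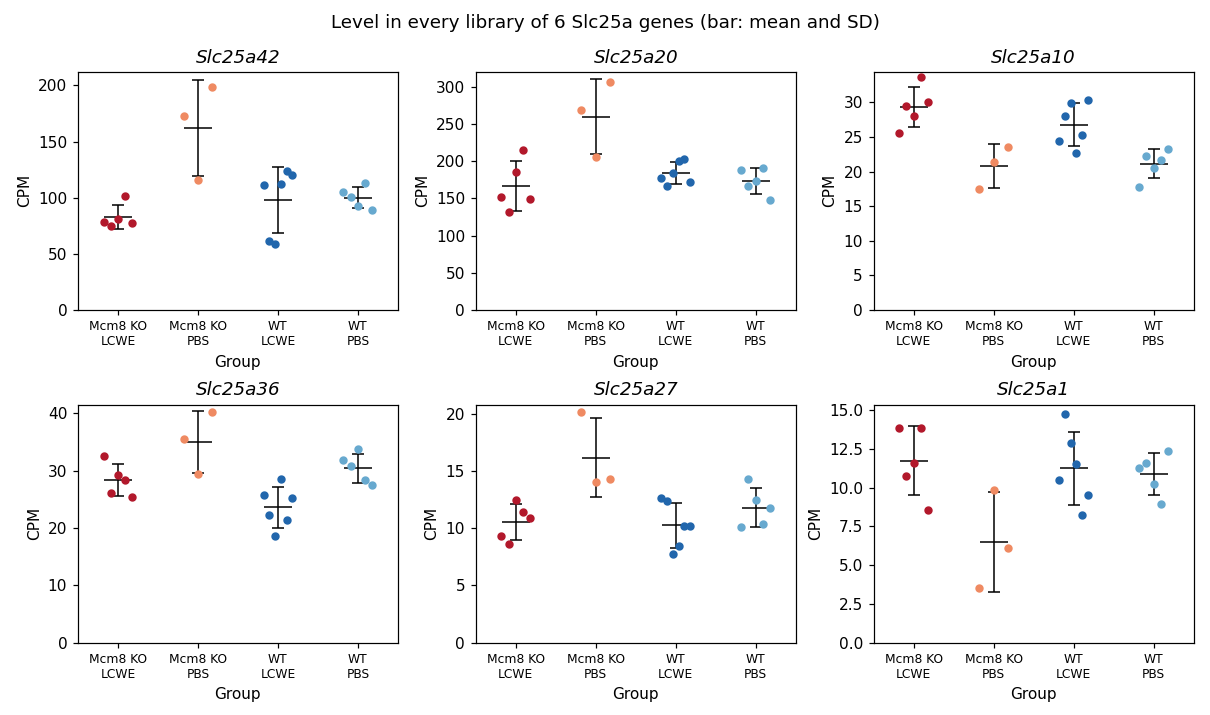
Level (CPM, axes from 0) of 6 Slc25a genes in every library, in Mcm8 knockout LCWE (n = 5), Mcm8 knockout PBS (n = 3), wild-type LCWE (n = 6) and wild-type PBS hearts (n = 5). Points are libraries, and the bars show the mean and SD. Slc25a42 lies between 74.9 and 102 CPM in knockout LCWE hearts, below the 115 to 198 CPM of knockout PBS hearts, while both wild-type groups overlap.

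Among the acylcarnitine and amino acid carriers, 5 of 6 were tested and 1 fell with LCWE in the knockout. Slc25a20, which exchanges acylcarnitine for carnitine across the inner membrane, had 153, 131, 186, 215 and 150 CPM in Mcm8 knockout LCWE hearts, against 269, 205 and 307 CPM in Mcm8 knockout PBS hearts. The groups overlapped through knockout LCWE replicate 4 and knockout PBS replicate 2. The log2 fold change was -0.64 ± 0.15 (adjusted p = 0.0346 by edgeR), and -0.62 without knockout PBS replicate 1 (adjusted p = 0.242). In wild-type LCWE hearts the level ran from 167 through 181 to 203 CPM, against 188, 167, 174, 191 and 148 CPM in wild-type PBS hearts, and the log2 fold change was 0.09 ± 0.12. Under PBS each of the 3 knockout libraries was above all 5 wild-type libraries, at a log2 difference of 0.58 ± 0.15 (adjusted p = 0.0617), and at 0.56 without replicate 1 (adjusted p = 0.544). The interaction was -0.72 ± 0.20 (adjusted p = 0.527).

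The other carriers of this role did not pass in any of the 7 comparisons. Slc25a29, for basic amino acids, had a log2 fold change of -0.76 ± 0.35 with LCWE in the knockout (adjusted p = 0.201) and a log2 difference of knockout and wild type of 0.95 ± 0.35 under PBS (adjusted p = 0.15), and these were -0.32 and 0.52 without knockout PBS replicate 1. Fold changes with LCWE in the knockout were -0.15 for the glycine carrier Slc25a38, -0.09 for the branched-chain amino acid carrier Slc25a44 (0.01 without knockout PBS replicate 1) and 0.12 for the ornithine carrier Slc25a15.

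Of the dicarboxylate, tricarboxylate and oxoglutarate carriers, 3 of 4 were tested and 1 rose with LCWE in the knockout. Slc25a10, which exchanges malate and succinate for phosphate, had 25.6, 29.5, 28.0, 33.6 and 29.996 CPM in Mcm8 knockout LCWE hearts, against 17.4, 21.4 and 23.6 CPM in Mcm8 knockout PBS hearts. Every knockout LCWE library lay above every knockout PBS library. The log2 fold change was 0.50 ± 0.13 (adjusted p = 0.0446 by edgeR), and 0.39 without knockout PBS replicate 1 (adjusted p = 0.331). Wild-type LCWE hearts ran from 22.6 through 26.7 to 30.4 CPM, against 17.8, 22.3, 20.5, 21.7 and 23.3 CPM in wild-type PBS hearts, at a log2 fold change of 0.34 ± 0.11 (adjusted p = 0.772). The wild-type groups overlapped by 1 library on each side. Averaged over genotypes, Slc25a10 rose by 0.42 ± 0.08 (adjusted p = 0.0269), and the value was 0.36 without knockout PBS replicate 1 (adjusted p = 0.129). It overlaps Gm11788 on the other strand, and their reads cannot be told apart here.

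Slc25a1, which exports citrate, had 13.8, 10.8, 11.6, 13.9 and 8.59 CPM in Mcm8 knockout LCWE hearts, against 3.501, 9.87 and 6.10 CPM in Mcm8 knockout PBS hearts. In wild-type LCWE hearts it ran from 8.26 through 11.03 to 14.8 CPM, against 11.3, 11.6, 10.3, 8.94 and 12.4 CPM in wild-type PBS hearts. Knockout PBS replicates 1 and 3 were the lowest of all libraries. The log2 fold change with LCWE was 0.85 ± 0.26 in the knockout (adjusted p = 0.0634) and 0.05 ± 0.20 in the wild type, with an interaction of 0.80 ± 0.32 (adjusted p = 0.595). Without knockout PBS replicate 1 the value in the knockout was 0.55 and the interaction 0.51.

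Slc25a11, which exchanges oxoglutarate for malate, had 611, 579, 664, 601 and 565 CPM in Mcm8 knockout LCWE hearts and 545, 621 and 559 CPM in Mcm8 knockout PBS hearts. The wild-type LCWE libraries ran from 633 through 679 to 805 CPM, and wild-type PBS hearts held 636, 547, 596, 649 and 589 CPM. The log2 fold change with LCWE was 0.07 ± 0.10 in the knockout and 0.19 ± 0.09 in the wild type (adjusted p = 0.772), and the knockout minus the wild type under LCWE was -0.19 ± 0.09 (adjusted p = 0.876). Slc25a11 overlaps Rnf167 on the other strand, with the same limit.

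Of the aspartate and glutamate carriers, 3 of 4 were tested and none passed in any of the 7 comparisons. Slc25a13, the aspartate-glutamate carrier citrin, had 120, 107.9, 124, 100.3 and 112 CPM in Mcm8 knockout LCWE hearts and 68.5, 107.6 and 84.5 CPM in Mcm8 knockout PBS hearts. With LCWE in the wild type it ran from 99.4 through 127 to 147 CPM, and wild-type PBS hearts held 126, 124, 120.6, 114 and 95.1 CPM. Knockout PBS replicates 1 and 3 were again the lowest libraries, and the knockout minus the wild type averaged -0.30 ± 0.10 over treatments (adjusted p = 0.111), with -0.22 without replicate 1. Its partner isoform Slc25a12, the main aspartate-glutamate carrier of heart and muscle, had a log2 fold change of -0.20 ± 0.12 with LCWE in the knockout (adjusted p = 0.306) and 0.08 ± 0.10 in the wild type. The glutamate carrier Slc25a22 lay at 50.6 to 92.5 CPM in knockout LCWE hearts and 95.5 to 133.7 CPM in knockout PBS hearts, without overlap, at -0.55 ± 0.21 (adjusted p = 0.127).

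The 3 carriers that resemble uncoupling proteins were all tested, and none passed by edgeR. Slc25a27 had 9.28, 8.63, 12.4, 11.4 and 10.9 CPM in Mcm8 knockout LCWE hearts, against 20.2, 14.0 and 14.3 CPM in Mcm8 knockout PBS hearts. The knockout groups did not overlap, and the log2 fold change of -0.62 ± 0.18 missed the threshold (adjusted p = 0.0583). Wild-type LCWE hearts ran from 7.74 through 10.2 to 12.6 CPM, against 10.1, 14.3, 12.5, 10.3 and 11.7 CPM in wild-type PBS hearts. Averaged over genotypes the value was -0.41 ± 0.12 (adjusted p = 0.0555), and -0.32 without knockout PBS replicate 1 (adjusted p = 0.198). Slc25a30 had a log2 fold change of -0.44 ± 0.19 and Slc25a14 one of 0.47 ± 0.27 with LCWE in the knockout.

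The adenine nucleotide and phosphate carriers hold the most abundant transcripts of the family, and none of the 6 tested of 8 passed in any of the 7 comparisons. Slc25a4 had 6554, 6304, 7539, 6972 and 7309 CPM in Mcm8 knockout LCWE hearts and 9984, 5940 and 7078 CPM in Mcm8 knockout PBS hearts. In wild-type LCWE hearts it ran from 6397 through 6881 to 10366 CPM, and wild-type PBS hearts held 6646, 6010, 6348, 6645 and 6662 CPM. The groups overlapped, with knockout PBS replicate 1 and wild-type LCWE replicates 2 and 3 above all other libraries, and the log2 fold change with LCWE was -0.14 ± 0.16 in the knockout, or 0.09 without that knockout PBS library, and 0.23 ± 0.14 in the wild type. Slc25a3, which supplies phosphate for ATP synthesis, had 1875, 1775, 1889, 1657 and 1866 CPM in Mcm8 knockout LCWE hearts and 2139, 1751 and 1794 CPM in Mcm8 knockout PBS hearts. For the wild type it ran from 1717 through 1988 to 2059 CPM in LCWE hearts and held 1915, 1790, 1743, 1933 and 1866 CPM in PBS hearts. Its fold changes with LCWE were -0.06 ± 0.10 in the knockout, or 0.03 without knockout PBS replicate 1, and 0.08 ± 0.08 in the wild type.

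Slc25a5, the X-linked translocase isoform of other cells, had 363, 412, 420.5, 293 and 347 CPM in Mcm8 knockout LCWE hearts and 380, 277 and 335 CPM in Mcm8 knockout PBS hearts. The wild-type LCWE libraries ran from 319 through 391 to 565 CPM, and wild-type PBS hearts held 344, 316, 342, 350 and 337 CPM. The log2 fold change with LCWE was 0.15 ± 0.16 in the knockout and 0.26 ± 0.14 in the wild type (adjusted p = 0.772). Within each library the log2 ratio of Slc25a5 to Slc25a4 was compared over the 4 pairs of groups. It was -4.25 ± 0.24 in Mcm8 knockout LCWE hearts (SD, n = 5) and -4.51 ± 0.18 in Mcm8 knockout PBS hearts (n = 3), a difference of 0.27 (exact permutation test, two-sided, p = 0.196, adjusted p = 0.392). In wild-type LCWE hearts it was -4.23 ± 0.11 and in wild-type PBS hearts -4.26 ± 0.03, a difference of 0.03 (exact p = 0.753, adjusted p = 0.887). The knockout minus the wild type was -0.02 under LCWE (exact p = 0.887) and -0.26 under PBS (exact p = 0.0179, the smallest that 3 against 5 libraries can give, adjusted p = 0.0716). All 3 knockout PBS libraries lay below all 5 wild-type PBS libraries, and the difference was -0.15 without knockout PBS replicate 1, the only PBS library with Y-linked reads over 100 CPM. Of the calcium-dependent ATP-Mg/phosphate carriers, Slc25a23, Slc25a24 and Slc25a25 had log2 fold changes of 0.21, 0.31 and 0.02 with LCWE in the knockout.

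**Figure D4:**
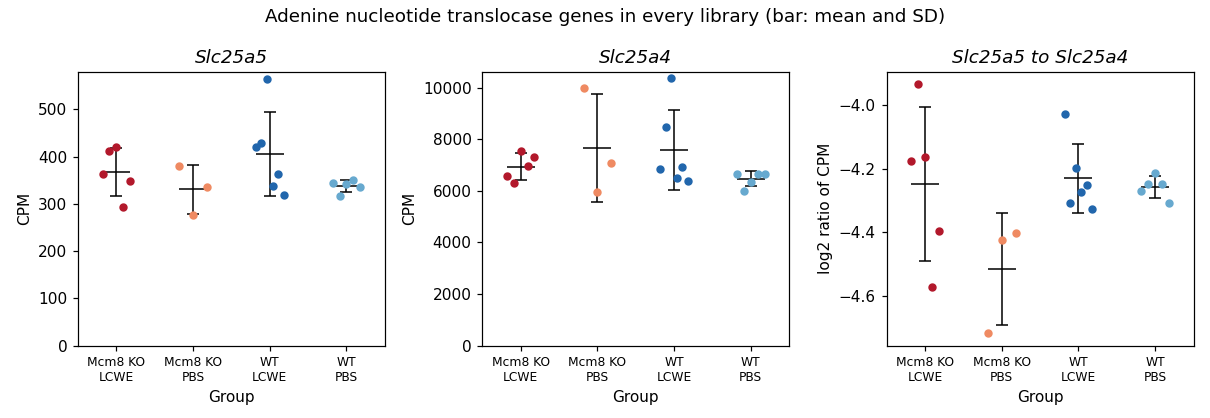
Level (CPM, axes from 0) of Slc25a5 and Slc25a4, and their log2 ratio (axis not from 0), in every library of Mcm8 knockout LCWE (n = 5), Mcm8 knockout PBS (n = 3), wild-type LCWE (n = 6) and wild-type PBS hearts (n = 5). Points are libraries, and the bars show the mean and SD. The 3 knockout PBS libraries lie below the 5 wild-type PBS libraries in the ratio, at -4.72 to -4.40 against -4.31 to -4.21.

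None of the 4 iron and glutathione carriers, all tested, passed in any of the 7 comparisons. Slc25a39 had 131, 129, 132, 142 and 104 CPM in Mcm8 knockout LCWE hearts and 145, 136.05 and 149 CPM in Mcm8 knockout PBS hearts. With LCWE in the wild type it ran from 139 through 146 to 157 CPM, and wild-type PBS hearts held 127, 132, 122.8, 150.1 and 151 CPM. The knockout minus the wild type under LCWE was -0.20 ± 0.09 (adjusted p = 0.876), with 1 knockout library, replicate 5, well below the rest. The iron importer mitoferrin 2, Slc25a28, was at -0.40 ± 0.19 with LCWE in the knockout and mitoferrin 1, Slc25a37, at -0.11 ± 0.18, while Slc25a40 was at 0.07 ± 0.20.

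The 9 carriers with no agreed substrate or another role gave 6 genes tested and 0 calls in all 7 comparisons. Slc25a34, the fifth most abundant transcript of the family per length, had 332, 174, 336, 555 and 254 CPM in Mcm8 knockout LCWE hearts and 477, 469.7 and 432 CPM in Mcm8 knockout PBS hearts. Wild-type LCWE hearts ran from 230.3 through 359 to 465 CPM, and wild-type PBS hearts held 357, 469, 375, 393 and 357 CPM. The knockout LCWE libraries were the most scattered, with replicate 4 above all others and replicate 2 below, and the log2 fold change was -0.48 ± 0.25 (adjusted p = 0.263). Slc25a47, known mainly from liver, had -0.68 ± 0.26 (adjusted p = 0.128), and Slc25a45, Slc25a35, Slc25a53 and Slc25a46 lay between -0.13 and 0.38.

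The 3 calls of LCWE against PBS in the knockout depended on single libraries. Left out one at a time, knockout PBS replicates 1 and 3 and knockout LCWE replicates 1, 3 and 5 each ended all 3 calls. The shares of all genes called in these fits were 0.0069%, 0.392%, 0.238%, 0.224% and 0.133%, in that order, against 2.9% with all libraries. Without knockout PBS replicate 2, 13 carriers were called, beside 20.2% of all genes. The fold changes kept their sign: Slc25a42 ran from -1.17 to -0.80, Slc25a20 from -0.79 to -0.51 and Slc25a10 from 0.39 to 0.60 over the 19 fits. Slc25a42 and Slc25a20 missed the threshold in 5 of these 19 fits, with adjusted p up to 0.239 and 0.242. Slc25a10 missed it in 14 and passed without knockout PBS replicate 2 or wild-type LCWE replicates 2, 3, 4 or 6. For LCWE averaged over genotypes, Slc25a10 missed it in 4 fits, those without knockout PBS replicate 1, knockout LCWE replicate 5 or wild-type PBS replicates 1 or 3, at 0.36 to 0.41 and adjusted p of 0.0506 to 0.129. Slc25a36 missed it in those 4 and without knockout PBS replicate 3, knockout LCWE replicates 3 or 4, wild-type LCWE replicates 1, 2, 3 or 5 or wild-type PBS replicates 2, 4 or 5, at -0.35 to -0.28 and adjusted p of 0.0526 to 0.145. Without knockout PBS replicate 2 there were also 11 calls between genotypes under PBS (17.9% of all genes), 4 in the interaction (3.31%), 11 for LCWE averaged over genotypes (19.6%) and 9 for the knockout averaged over treatments (16.5%). That library had the highest Slc25a1 and Slc25a26 and the lowest Slc25a42 and Slc25a20 of the 3 in its group. The 13 libraries with Xist over 100 CPM were a choice made after the data were seen. Within them, Slc25a42 was at -0.62, Slc25a20 at -0.25 and Slc25a10 at 0.59 with LCWE in the knockout. That fit holds 1 knockout LCWE library, which is assumed to vary like the other groups, so only the fold changes are given.

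**Figure D5:**
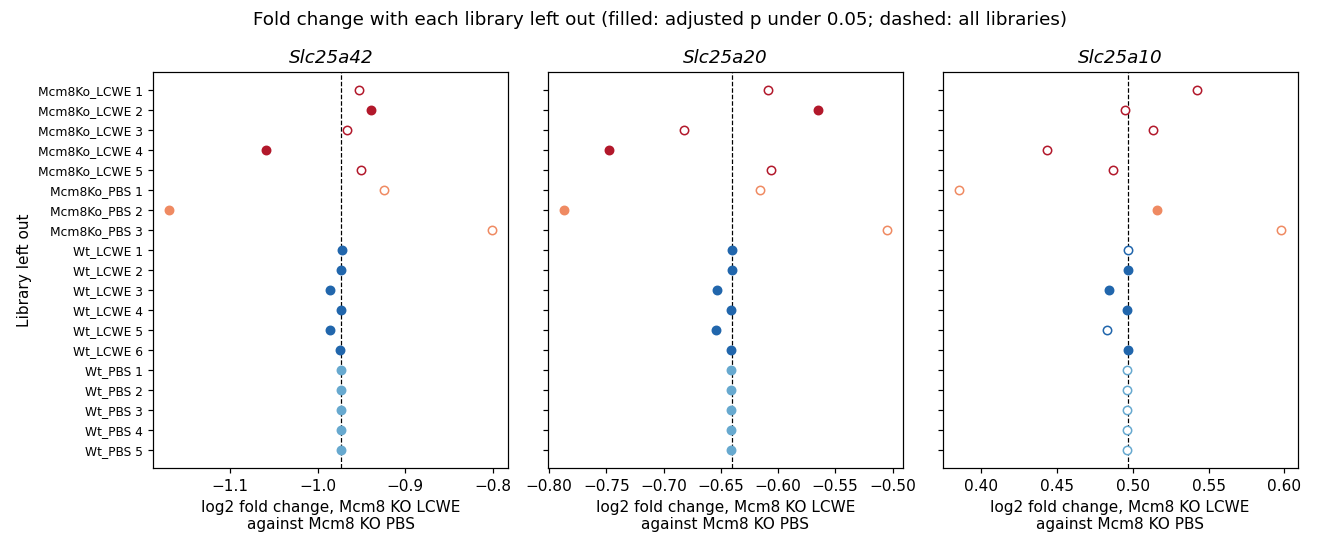
Log2 fold change of Slc25a42, Slc25a20 and Slc25a10, Mcm8 knockout LCWE over Mcm8 knockout PBS, with each of the 19 libraries left out in turn (axes not from 0). Filled points passed an adjusted p under 0.05, open points did not, and the dashed line is the value with all libraries. Each value keeps its sign, at -1.17 to -0.80, -0.79 to -0.51 and 0.39 to 0.60.

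Genes around the carriers were counted in the same fits, from lists of partners. By edgeR, 0 of their 45 tested members were called in any of the 7 comparisons, beside 0% to 2.95% of all genes. At an unadjusted p under 0.05 there were 9 with LCWE in the knockout (20%, against 23.4% of all genes) and 5 in the wild type (11.1%, against 6.24%). DESeq2 called Cpt2 and Sfxn1 with LCWE in the knockout, beside 8.81% of all genes, and Agk and Sfxn2 between genotypes under PBS, beside 4.89%. It called Sfxn1, Smdt1 and Timm13 for LCWE averaged over genotypes, beside 9.45%, and Agk and Mdh1 for the knockout averaged over treatments, beside 4.7%. By limma-voom 0 were called, beside at most 1.01% of all genes in a comparison. With LCWE in the knockout, the log2 fold changes of the 6 partners of the carnitine shuttle had their median at -0.31, among them Cpt2, the carnitine palmitoyltransferase of the matrix side, at -0.58 ± 0.17 (adjusted p = 0.0579) and carnitine acetyltransferase Crat at -0.34 ± 0.15 (adjusted p = 0.168). In the wild type their median was 0.01. The 4 enzymes of the malate-aspartate shuttle had a median of -0.01 in the knockout, with the cytosolic aspartate aminotransferase Got1 at -0.48 ± 0.17 (adjusted p = 0.0997), or -0.17 without knockout PBS replicate 1. The 10 genes of the TIM22 import pathway had medians of 0.17 in the knockout and 0.27 in the wild type, with the subunit Agk at 0.47 ± 0.17 (adjusted p = 0.099) in the knockout and the chaperone Timm13 at 0.50 ± 0.17 (adjusted p = 0.772) in the wild type. Timm13 stood at 128 and 159 CPM in wild-type LCWE replicates 2 and 3. It lay at 64.8 to 91.6 CPM in the other wild-type LCWE libraries and 63.2 to 79.3 CPM in wild-type PBS libraries. Carriers of the family with other symbols gave 4 tested of 5, with Ucp2, Ucp3, Mtch1 and Mtch2 between -0.07 and 0.23 in the knockout. Ucp3 was scattered, at 14.15 to 223 CPM in knockout LCWE hearts and 34.2 to 199 CPM in knockout PBS hearts. Among 21 other transport proteins of the mitochondrial membranes, the serine transporter Sfxn1 was at 0.56 ± 0.16 (adjusted p = 0.0586) and the calcium uniporter subunit Mcub at 1.04 ± 0.36 (adjusted p = 0.0938) with LCWE in the knockout.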

How the data were processed

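RNA of mouse heart was sequenced in 19 samples. Genotype and treatment of each were taken from the labels, and replicate numbers follow accession order and pair nothing. The labels' protocols name a whole transcriptome kit with preamplification. The deposited values are whole-number counts per gene symbol, not normalized. STAR 2.7.8a, limma 3.36.160 and GRCm38 are listed in the submitters' processing notes without a role. How reads were counted, with which annotation and on which strand, is not given in the sources used here.

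Genes were kept by filterByExpr (minimum count 10, minimum total 15), which left 14301. They were scaled by TMM and tested with edgeR 4.0.16 (robust quasi-likelihood test, R 4.3.3) in 1 model of all 4 groups, in 7 contrasts. Those were LCWE in each genotype, knockout under each treatment, the interaction and both averages. Benjamini-Hochberg adjustment ran over all genes tested, and calls are adjusted p under 0.05. CPM use the TMM factors, and RPKM also the exon length in GENCODE M21. The ratio of Slc25a5 to Slc25a4 was compared by an exact permutation test, adjusted over 4 comparisons. No 2 libraries of a group looked like duplicates (lowest chi-square per gene 7.85). The procedure was tested on counts simulated from the mean profile of the genes. No library stood apart in them, so that test does not cover a library like knockout PBS replicate 1. The carriers tested had at least 8 counts in each library. The number of columns of samples outside the series was 0.

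The carriers, the roles and the partner and marker lists were chosen with earlier results of these data known. Carriers are given by sample (the 6 wild-type LCWE samples by lowest, median and highest) if called in a contrast, if among the 3 smallest p-values of a contrast, or if among the 5 highest levels per length. Others stand by role, as ranges, and those named with a value were picked after their values were seen. 1 carrier enters the counts and medians and is not reported here by itself. List members are named by smallest p. Alternatives were RLE factors, library totals, no filter, at least 5 CPM in 3 libraries, a non-robust fit, DESeq2 1.42.0, limma-voom (limma 3.58.1), only the groups compared, the sample-number range or the Y-linked level as covariate, libraries numbered 100 to under 200, a pseudocount of 1 CPM for the ratio, and leaving out each library. Libraries with Xist over 100 CPM were added after the data were seen.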

Additional observations from a re-analysis of the deposited data

Results flagged for a closer look

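In 48 combinations of a gene and a group of 4 to 10 libraries, 5 held a library whose gap to its nearest neighbour was large against the range of its group, a rule that chance meets in about 1 of 20 groups. Slc25a42 reached 101.8 CPM in Mcm8 knockout LCWE replicate 4, above the next library at 81.3 CPM, and that library also had the highest Slc25a20 and Slc25a34 of its group. Wild-type LCWE replicate 3 held 804.7 CPM of Slc25a11, above the next at 689.3 CPM, and 5.526 CPM of Slc25a32, below the next at 7.312 CPM. Wild-type LCWE replicate 2 held 1717 CPM of Slc25a3, below the next at 1964 CPM. Slc25a26 was at 24.02 CPM in wild-type PBS replicate 3, below the next at 26.97 CPM.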

How the results depend on the processing

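No paired analysis was possible because the sample numbers in the labels are not shared between groups, and what these numbers mean is not given in the sources used here. RLE factors, library totals alone, a filter of at least 5 CPM in 3 libraries and a fit that is not robust left every count of called carriers as reported. With LCWE in the knockout the count of 3 became 5 with DESeq2 (8.81% of all genes) and 6 with the Y-linked level as covariate (5.89%). It became 0 with limma-voom (0.79%), with only the groups compared (0%) and with the sample-number range as covariate (0.811%). The causes of these changes were not tested. For LCWE averaged over genotypes the count of 2 became 4 with DESeq2 (9.45% of all genes) and with the Y-linked covariate (6.91%). It became 1 without a filter (1.17%), with limma-voom (1.01%) and with the range covariate (0.357%). Knockout against wild type under PBS gave 2 with DESeq2 (4.89% of all genes), 1 without a filter (Slc25a18, 0.311%) and 1 with the range covariate (Slc25a26, 3.66%). The knockout averaged over treatments gave 1 with each of DESeq2 (4.7%) and the range covariate (1.82%). Within libraries numbered 100 to under 200, where knockout PBS has only replicate 1, the library that stands apart, and the other groups give its spread, counts were 15 for LCWE in the knockout, 3 in the wild type, 11 for knockout under PBS, 9 for the interaction, and 15 and 10 for the averages of LCWE and knockout, beside 27.1%, 8.28%, 27%, 15.1%, 30.7% and 22.7% of all genes. Leaving out each library gave ranges of 0 to 13, 0 to 0, 0 to 11, 0 to 4, 0 to 11 and 0 to 9 in that order, and 0 to 0 for knockout under LCWE. For LCWE averaged over genotypes, 0 carriers were called without knockout PBS replicate 1, knockout LCWE replicate 5 or wild-type PBS replicates 1 or 3. The shares of all genes were 0%, 0.19%, 0.329% and 0.252%, in that order. The Slc25a5 to Slc25a4 ratio, knockout minus wild type under LCWE, turned from -0.017 to 0.087 within numbers 100 to under 200, and to 0.023, 0.063 and 0.019 without wild-type LCWE replicate 1 and knockout LCWE replicates 4 and 5 (range -0.095 to 0.063). In the wild type it became -0.013 without wild-type LCWE replicate 1 (range -0.013 to 0.046). In the knockout it ranged from 0.163 to 0.345, and between genotypes under PBS from -0.311 to -0.154. Counts of the 8 carriers not tested limit any statement on them.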
